A study of Mus musculus with 12 samples.

Results

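T cells in large clones are described here, those whose beta chain rearrangement was shared by 10 or more cells of their library. The members were chosen by a measured value, the number of cells in a clone. Each called cell took its productive beta chain (TRB) contig with the most unique molecular identifiers (UMIs, which count molecules), and cells of a library formed a clone where that contig had both the TRBV gene and the CDR3 nucleotides in common. Of 10295 cells with a productive TRB, 683 were members, in 21 of 9348 clones. They are set beside the 1253 cells that were alone in their clone in the same 4 libraries. Clone number and size are therefore described without a test, and tests were kept to values other than clone size. Some of these, namely TRB UMIs, a second TRB, and the genes and CDR3 of TRB, describe contigs by which clones were formed. They are thus not independent of the rule.

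The libraries were made from CD45+ immune cells of mammary tumours in BALB/c mice. The labels name 1 treatment, cyclophosphamide, which alkylates DNA, given with pexidartinib, which blocks the CSF1 receptor of macrophages, over 3 weeks. They do not say which agent each treated library received, which mouse it came from, the animals' age or how the tumours arose. Of 12 samples, 4 were receptor libraries, all labelled treated, and the receptor table also named 2 libraries that could be tied only to expression samples. CTX, Combined and CTX2 were treated receptor replicates 1, 3 and 4. PBS2 was treated receptor replicate 2, but its tag and the untreated label of its paired expression library go against that label. CSF1R was tied to the treated expression group and PBS1 to untreated expression replicate 3. The tags are the table's own and the labels do not define them.

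A T cell receptor pairs an alpha chain (TRA) with a beta chain. Each chain is built in the thymus by joining a V gene to a J gene, in the beta chain with a D gene between them, while bases are trimmed and added at the joints. The joint forms the CDR3 loop, which contacts the peptide held by an MHC molecule. Because the rearranged DNA passes to daughter cells, cells with the same joint are usually descendants of 1 cell, and a tumour-infiltrating T cell that recognises its antigen can leave many such descendants. Failed joints on the other chromosome copy are inherited too.

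The label of T cell was borne out by the receptor contigs. A productive TRA was found in 648 of the 683 members (94.9%), no member carried an immunoglobulin contig, and none carried a gamma or delta chain. The TRAV11 and TRAJ18 pair of invariant NKT cells was seen in 2 members, and the TRAV1 and TRAJ33 pair of MAIT cells in none. Those 2 members were 1 cell each of 2 CTX2 clones with another main alpha chain. Among the 1253 single cells these pairs were seen in 15 and 5. Libraries were enriched for alpha and beta sequences, so other lineages could hardly have been seen, and CD4, CD8 or activation state was not read.

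The 6 libraries held 192 to 7188 TRB cells, and the median TRB contig of a cell rested on 5 to 16 UMIs. CTX2 stood apart by its share of large clones and had the highest median. It and Combined have titles of another numbering series than the rest, and Combined had no large clone and a median of 10 UMIs. Of 11468 called barcodes, 50 occurred in more than 1 library, 10 members among them, and no shared barcode had the same TRB clone in both libraries.

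The CDR3 sequences of the largest clones, up to 3 for each library, show what the members shared. Clones are named by library and by rank of size, and each line runs 5′ to 3′ with capitals for the bases between the stretch typical of the V gene and the stretch typical of the J gene in this table. These include the untemplated or D gene bases, or places where BALB/c or a gene copy differs. The match to a typical stretch stops at the first differing base. Bases past it are capitals even where they are typical, as in the CGC of the PBS2-1 TRB. The length of a capital stretch is therefore not a count of added bases.
PBS1-1 TRB, 17 cells, TRBV14 and TRBJ2-4: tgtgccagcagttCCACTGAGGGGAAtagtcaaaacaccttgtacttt
PBS1-1 TRA, TRAV12-1 and TRAJ45: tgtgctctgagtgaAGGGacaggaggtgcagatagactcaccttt
PBS1-2 TRB, 12 cells, TRBV13-2 and TRBJ1-4: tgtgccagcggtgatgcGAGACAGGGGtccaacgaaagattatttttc
PBS1-2 TRA, TRAV9N-4 and TRAJ18: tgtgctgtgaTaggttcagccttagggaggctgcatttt
PBS2-1 TRB, 27 cells, TRBV13-2 and TRBJ2-5: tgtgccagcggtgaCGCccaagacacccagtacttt
PBS2-1 TRA, TRAV12D-2 and TRAJ39: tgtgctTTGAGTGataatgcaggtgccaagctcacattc
CTX-1 TRB, 41 cells, TRBV2 and TRBJ2-5: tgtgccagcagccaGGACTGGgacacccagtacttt
CTX-1 TRA, TRAV14N-1 and TRAJ47: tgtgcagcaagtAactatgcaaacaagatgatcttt
CTX-2 TRB, 18 cells, TRBV19 and TRBJ2-5: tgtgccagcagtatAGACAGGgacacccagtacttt
CTX-2 TRA, TRAV13D-2 and TRAJ40: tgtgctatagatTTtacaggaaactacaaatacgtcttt
CTX-3 TRB, 14 cells, TRBV13-1 and TRBJ2-7: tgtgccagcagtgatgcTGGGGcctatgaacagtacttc
CTX-3 TRA, TRAV14N-1 and TRAJ58: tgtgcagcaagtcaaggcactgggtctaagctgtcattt
CTX2-1 TRB, 117 cells, TRBV4 and TRBJ2-7: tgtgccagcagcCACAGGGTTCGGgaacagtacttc
CTX2-1 TRA, TRAV7D-4 and TRAJ49: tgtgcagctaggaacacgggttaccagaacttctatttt
CTX2-2 TRB, 86 cells, TRBV13-2 and TRBJ2-4: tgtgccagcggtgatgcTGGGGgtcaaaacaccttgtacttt
CTX2-2 TRA, TRAV7-1 and TRAJ22: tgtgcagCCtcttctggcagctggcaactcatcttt
CTX2-3 TRB, 59 cells, TRBV13-2 and TRBJ1-6: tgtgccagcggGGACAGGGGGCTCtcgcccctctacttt
CTX2-3 TRA, TRAV7-4 and TRAJ49: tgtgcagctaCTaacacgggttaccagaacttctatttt

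The capital stretches of these TRB chains ran from 3 bases in PBS2-1 to 13 in PBS1-1 and CTX2-3. In CTX-3 and CTX2-1 the main alpha chain had no such base at all, so that every base of the joint was one typical of its V or J gene. Over all 21 clones the stretch in TRB was shortest in CTX2-12, at 0 bases, and longest in CTX2-14, at 15. The mean in large clones, each clone counted once, was 11.5 bases in PBS1, 3 in PBS2, 5.5 in CTX and 8.64 in CTX2, beside 10.3, 10.01, 9.69 and 10.01 in single-cell clones. It was the shorter one in 3 of the 4 libraries.

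Large clones were a property of some libraries and not of others. They held 29 of 192 TRB cells in PBS1 (15.1%, exact 95% Clopper-Pearson interval 10.4 to 20.97), 27 of 432 in PBS2 (6.25%, 4.16 to 8.96) and 84 of 532 in CTX (15.8%, 12.8 to 19.2). In CTX2 they held 543 of 1085 (50.05%, 47.0 to 53.1). CSF1R and Combined had none among 866 and 7188 cells, and their largest clones had 7 and 6 cells. Intervals and limits cover counting error only and treat cells as separate draws, although members come in clones of 10 or more. A clone of 10 cells is a different share of each library, 5.21% of the TRB cells of PBS1, 1.16% of those of CSF1R and 0.139% of those of Combined, so the rule was hardest to meet in PBS1. A share below these values could not have been seen in CSF1R or Combined. The untreated library, PBS1, lay within the range of the libraries labelled treated, and with 1 such library no comparison of treated with untreated was made.

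**Figure D1:**
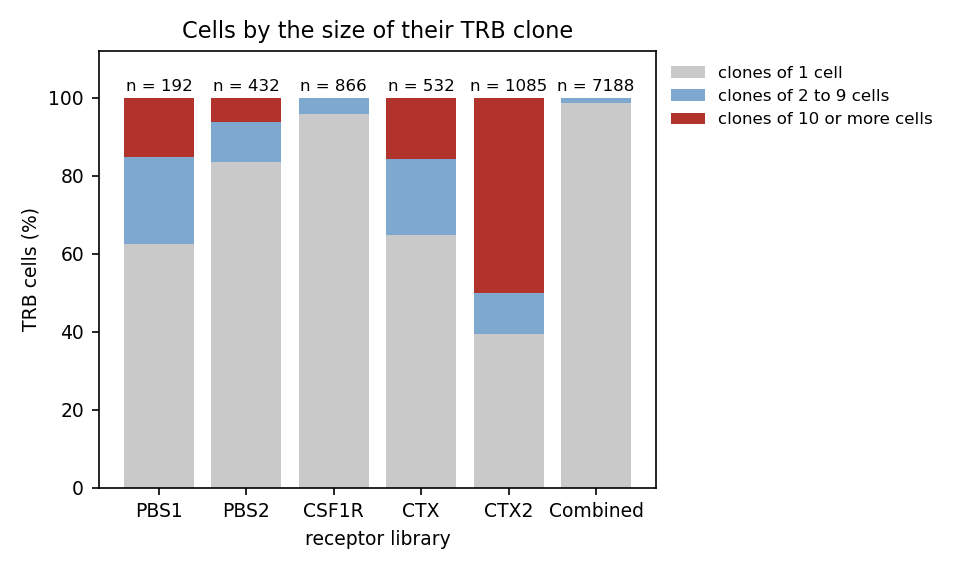
Share of TRB cells (%) in clones of 1 cell, of 2 to 9 cells and of 10 or more cells in each receptor library, with the number of TRB cells above each bar. Large clones, in red, made up 50.05% of CTX2 and were not found in CSF1R or Combined.

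The members were spread unevenly over clones. CTX2 had 14 large clones, of 117, 86, 59, 55, 47, 41, 37, 21, 19, 15, 14, 11, 11 and 10 cells, and CTX had 4, of 41, 18, 14 and 11. PBS1 had 2, of 17 and 12 cells, and PBS2 had 1, of 27. The largest, CTX2-1, held 10.8% of its library's TRB cells (9 to 12.8), followed by PBS1-1 with 8.85% (5.24 to 13.8), CTX2-2 with 7.93% (6.39 to 9.70) and CTX-1 with 7.71% (5.59 to 10.3). The intervals of these 4 overlap, and their order was not tested. PBS2-1 held 6.25% (4.16 to 8.96). Just inside the threshold were CTX2-14 with 10 cells, CTX2-12, CTX2-13 and CTX-4 with 11 each, and PBS1-2 with 12. Just outside it were PBS1-3 with 9 cells, on TRBV13-3, and CTX-5 and CTX-6 with 8 each, on TRBV1 and TRBV13-2. CTX-5 was unlike all 21 members in that none of its 8 cells had a productive TRA.

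The 21 clones used 9 TRBV genes, which encode the V part of the beta chain and its other antigen-facing loops. TRBV13-2 was used by 9 clones and 304 cells, TRBV14 by 3 clones and 105 cells, TRBV13-1 and TRBV13-3 by 2 clones each, and TRBV1, TRBV2, TRBV4, TRBV5 and TRBV19 by 1 each. The TRBV13 family together made 13 of 21 clones, and it is also the most used family among single cells, at 447 of 1253 (35.7%). TRBV14 made 40 of those 1253 (3.19%). In the mm10 build (RefSeq GRCm38.p6, another strain than BALB/c) these V segments lie on chromosome 6, TRBV13-2 at chr6:41121396-41121832, TRBV14 at chr6:41135167-41135616 and TRBV4, the gene of CTX2-1, at chr6:41059443-41059886. The alpha genes lie on chromosome 14, TRAV7-1 at chr14:52654817-52655329 and TRAJ22 at chr14:54197248-54197307. Each is a gene segment whose coding part becomes exonic after joining.

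Joining used both clusters of TRBJ genes, with 7 clones on TRBJ1 and 14 on TRBJ2. TRBJ2-5 was used by 4 clones, TRBJ2-4 and TRBJ2-7 by 3 each, TRBJ1-1, TRBJ1-4, TRBJ1-6 and TRBJ2-1 by 2 each, and TRBJ1-5, TRBJ2-2 and TRBJ2-3 by 1 each. The CDR3 spanned 11 codons in 3 clones, 12 in 4, 13 in 3, 14 in 4, 15 in 2, 16 in 4 and 17 in 1, counting the flanking cysteine and phenylalanine. The clones of CTX and PBS2 lay at 11 to 13 codons and both clones of PBS1 at 16, while those of CTX2 covered the whole range.

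The alpha chain took no part in choosing the members, and it was nearly uniform within each clone. A clone's main TRA, the TRAV gene and CDR3 nucleotides found in most of its cells, was present in 630 of the 648 members with a TRA (97.2%, 95.7 to 98.4). It was present in 27 of 28 in PBS1 (96.4%, 81.7 to 99.9), in 22 of 24 in PBS2 (91.7%, 73.0 to 99.0), in 77 of 77 in CTX (100%, 95.3 to 100) and in 504 of 519 in CTX2 (97.1%, 95.3 to 98.4). As a partial background for free receptor RNA and doublets, any of these main alpha chains was found in 6 of the 1077 single-cell clones with a TRA in the same libraries (0.557%, 0.205 to 1.21). A barcode whose leading TRB was that of a large clone counts as a member, so this share can understate that background. In 13 of the 21 clones every cell with a TRA had the main one, and the lowest share was 32 of 36 (88.9%) in CTX2-7.

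Among the 18 members with another TRA only, 2 cells of PBS2-1 had the main CDR3 under a different TRAV name. TRAV genes have near-identical copies, so the V name of such a cell is uncertain. A further 4, all in CTX2, carried the main TRA of another large clone of their library, and 12 carried some other TRA. CTX2-2 accounted for 5 of the 18, and all 82 of its cells with a TRA had an alpha chain of the same amino acid sequence.

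**Figure D2:**
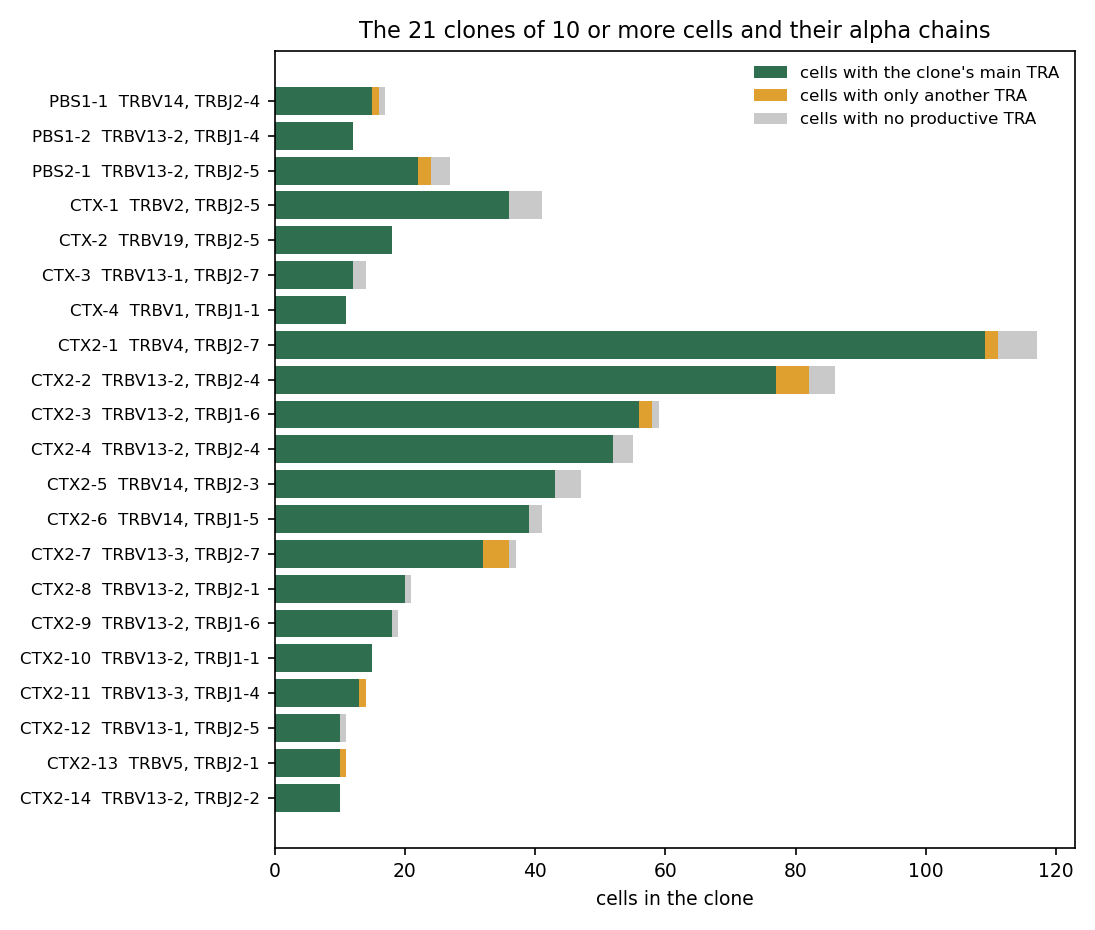
Number of cells in each of the 21 clones, split into cells with the clone's main TRA, cells with another TRA only and cells with no productive TRA. The main TRA, in green, fills most of every bar, and 630 of 648 cells with a TRA had it.

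Some clones carried a second productive alpha chain in most of their cells, as happens when both chromosome copies of the alpha locus were joined in frame. In CTX2-7, 32 of 36 cells with a TRA had TRAV14N-1 with TRAJ58, 32 had TRAV3-4 with TRAJ56, and 29 had both. In CTX2-11 the TRAV12D-2 and TRAJ34 chain was in 13 of 14 cells and TRAV6-6 with TRAJ31 in 11, with both in 10. In CTX2-13 the TRAV14-1 and TRAJ58 chain was in 10 of 11 cells and TRAV3-4 with TRAJ57 also in 10, with both in 9. These 3 clones of CTX2 were the only ones of the 21 with a second TRA in at least 50% of cells. CTX-3 came next, with TRAV21-DV12 and TRAJ57 in 5 of 12 cells, and in the other 17 clones a next TRA with another CDR3 was in 0 to 6.67% of cells. PBS2-1 also had TRAV12N-1 with TRAJ39 in 5 of 24 cells, with the CDR3 nucleotides of its main chain. Outside the threshold, PBS1-3 had 2 such chains as well, in 9 and 7 of 9 cells. The pairs of alpha sequences of CTX2-7 and CTX2-13 are shown because the same pair recurs from cell to cell.
CTX2-7 TRA, TRAV14N-1 and TRAJ58: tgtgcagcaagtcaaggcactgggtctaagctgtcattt
CTX2-7 second TRA, TRAV3-4 and TRAJ56: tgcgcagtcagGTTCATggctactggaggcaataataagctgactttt
CTX2-13 TRA, TRAV14-1 and TRAJ58: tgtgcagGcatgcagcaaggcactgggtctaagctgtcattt
CTX2-13 second TRA, TRAV3-4 and TRAJ57: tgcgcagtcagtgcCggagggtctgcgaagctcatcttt

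Contigs not marked productive were also shared within clones. The deposited mark is either False or not set, and whether a contig with an unset mark can make a chain was not tested. A contig with a V and a J gene and either state, of the same genes in at least 25% of a clone's cells, was found in 12 of 21 clones, for TRB in 5 and for TRA in 10. Counting only contigs marked False, 2 clones reached that share, CTX2-1 for TRB with 33 of 117 cells (28.2%) and CTX2-2 for TRA with 25 of 86 (29.1%). With either state, in CTX2-2 a TRBV15 and TRBJ2-7 contig was present in 81 of 86 cells (94.2%), and in 2 of the 427 single-cell clones of CTX2. CTX2-1 had TRBV31 with TRBJ1-4 in 70 of 117 cells (59.8%) and TRAV13N-3 with TRAJ53 in 70 too, and neither pair occurred in a single-cell clone of that library. CTX2-10 had TRBV15 with TRBJ1-1 in 9 of 15 cells, CTX2-4 had TRBV15 with TRBJ2-5 in 19 of 55, and CTX2-6 had TRBV12-2 with TRBJ1-6 in 11 of 41, each seen in 0 of the 427. The mark was False in 0 of those 81 cells of CTX2-2, 33 of the 70 of CTX2-1, 1 of the 9 of CTX2-10, 11 of the 19 of CTX2-4 and 0 of the 11 of CTX2-6. All 5 large clones with such a shared TRB were in CTX2. Just outside the threshold, CTX-6 of CTX had TRBV23 with TRBJ1-4 in 4 of its 8 cells, with the mark False in 0. That pair was seen in 0 of the 345 single-cell clones of CTX.

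The alpha side was less lopsided between libraries. CTX2-5 had a TRAV4-3 and TRAJ42 contig not marked productive in 25 of 47 cells, CTX2-2 had TRAV9-4 with TRAJ17 in 40 of 86, and PBS1-2 had TRAV8N-2 with TRAJ23 in 5 of 12. CTX-1 had TRAV7-1 with TRAJ34 in 16 of 41 cells and PBS1-1 had TRAV5N-4 with TRAJ48 in 5 of 17. CTX2-6, CTX2-8, CTX2-9, CTX2-1 and CTX-4 made up the 10, at 26.8% to 59.8% of cells. Apart from CTX2-2, the mark was False in 0 to 2 cells of each. PBS2-1 had none at that level. Of these contigs, the PBS1-1 pair was also seen in 1 of 120 single-cell clones and the others in none of their library.

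**Figure D3:**
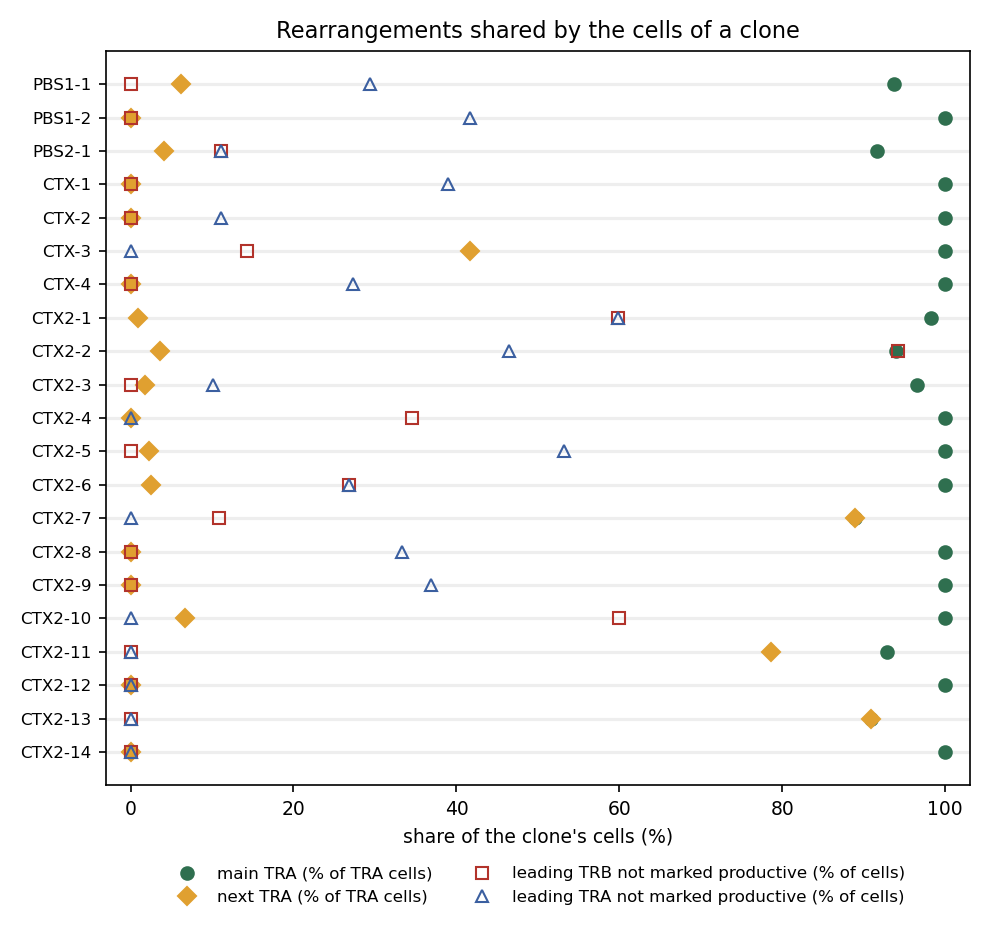
For each of the 21 clones, the share of its cells with a TRA that have the main TRA or the next most frequent TRA, and the share of all its cells with the leading TRB or TRA contig not marked productive, drawn at 0 where fewer than 2 cells share one. Main TRA shares lie at 88.9% or above in every clone, next TRA shares pass 50% in 3 clones, and CTX2-2 has such a TRB in 94.2% of cells.

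TRBV15 stood in 3 of these 5 shared TRB contigs, joined to a different J gene in each clone. Of the 543 members in CTX2, 111 carried a TRBV15 contig not marked productive (20.4%), beside 5 of 427 single cells (1.17%), and nearly all of the 111 are the 81, 19 and 9 cells of those 3 clones. TRBV15 is among the V genes whose productive chains are largely deleted in BALB/c mice by mouse mammary tumour virus superantigens, together with TRBV12-1, TRBV12-2, TRBV16 and TRBV26. None of the 21 clones was built on 1 of these 5 genes, a count that allows a share of up to 14.3%, and 46 of the 1253 single-cell clones were (3.67%), so no difference was detectable at this number of clones.

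Clones of one library sometimes had the same beta chain protein written in different nucleotides, as separate rearrangements can give. The TRBV gene and CDR3 amino acids were found under other nucleotides in the same library for 3 of 14 large clones in CTX2, 1 of 4 in CTX, 0 of 2 in PBS1 and 0 of 1 in PBS2. Among single-cell clones this was so for 0 of 427 in CTX2, 2 of 345 in CTX, 2 of 120 in PBS1 and 0 of 361 in PBS2. The 2 of CTX had the beta amino acids of CTX-3, so both counts of CTX rest on the same sequence. Among the 3 of CTX2, CTX2-2 and CTX2-4 match each other. The amino acid sequence of CTX2-2 and CTX2-4 was the most repeated. It was written in 9 nucleotide forms, in 10 clones and 163 cells of 3 libraries, of which 6 clones and 157 cells were in CTX2. The other clones differed from CTX2-2 at up to 2 of 42 bases. In CTX2 the main alpha chain of none of the 5 other forms had the nucleotides of the CTX2-2 alpha, so these clones differed in both chains. The forms of CTX2 and CTX are shown for their differing middle.
CTX2-2, 86 cells: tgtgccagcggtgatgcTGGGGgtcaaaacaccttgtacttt
CTX2-4, 55 cells: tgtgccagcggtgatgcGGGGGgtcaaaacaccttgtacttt
CTX2-15, 7 cells: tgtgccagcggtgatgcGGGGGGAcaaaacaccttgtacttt
CTX2-21, 4 cells: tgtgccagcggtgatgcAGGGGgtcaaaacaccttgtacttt
CTX2-23, 3 cells: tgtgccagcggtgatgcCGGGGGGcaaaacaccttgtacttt
CTX2-42, 2 cells: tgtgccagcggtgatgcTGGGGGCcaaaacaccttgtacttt
CTX-14, 3 cells: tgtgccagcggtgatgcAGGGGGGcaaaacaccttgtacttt

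These chains also had like partners. In 9 of the 10 clones the main alpha chain joined TRAV7-1 to TRAJ22. In CTX2 147 of the 150 cells with a TRA had the very alpha amino acid sequence of CTX2-2. Of these, 82 were cells of CTX2-2 itself, which set the sequence, and 52 were cells of CTX2-4. CTX2-15, CTX2-21 and CTX2-42 had it in 7 of 7, 4 of 4 and 2 of 2 cells, and CTX2-23 in 0 of 3. Cells of a clone are not separate observations. Among single-cell clones of the 4 libraries with members, a TRAV7 family gene with TRAJ22 was found in 9 of 1077 with a TRA (0.836%). The clone of the 10 without this gene pair was 1 cell in Combined, which had the same beta nucleotides as CTX2-2 and an alpha chain of TRAV6-5 and TRAJ31. It was also the only cell of another library with the TRB nucleotides of any member.

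CTX-3 showed the same pattern at smaller size. Its beta amino acids were written in 5 forms, in 3 clones of CTX with 16 cells, 1 clone of PBS1 with 4 cells and 1 cell of PBS2. The main alpha chain was TRAV14N-1 with TRAJ58 in all 5 clones, a gene pair (any TRAV14 copy) found in 6 of the 1077 single-cell clones (0.557%). The alpha amino acids of CTX-3 itself were in 14 of 14 cells with a TRA in CTX, of which 12 were its own cells. They were in 0 of 4 in PBS1 and in 0 of 1 in PBS2. The 2 other forms in CTX were single cells with the alpha nucleotides of CTX-3, and whether they are sequencing errors of that clone was not tested. PBS2-1 had its beta amino acids again in CTX-6, 8 cells in another library. Of those 8 cells, 6 also had an alpha chain with the amino acids of the PBS2-1 alpha. Their sequences differ at 2 of 36 bases in TRB and are alike in TRA, where the 6 cells hold it as the second chain beside TRAV13D-2 with TRAJ42.
PBS2-1 TRB: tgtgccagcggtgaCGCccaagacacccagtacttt
CTX-6 TRB: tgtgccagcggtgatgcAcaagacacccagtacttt
PBS2-1 TRA: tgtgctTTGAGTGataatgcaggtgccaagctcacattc
CTX-6 second TRA: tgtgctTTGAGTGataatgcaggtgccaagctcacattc

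A repeated beta chain did not always come with a repeated alpha chain. The beta amino acids of CTX2-13, on TRBV5, were written in 4 forms, with 11, 3 and 2 cells in CTX2 and 3 cells in PBS2. The pair of main alpha genes differed in all 4 clones, although CTX2-13 and the clone of 3 cells in CTX2 both joined a TRAV14 copy to TRAJ58, and no cell of the other 3 clones had the alpha amino acids of CTX2-13. CTX2-12 had its beta amino acids in 1 cell of Combined, which had no productive TRA. In all, the beta amino acids of 6 of the 21 clones were found in another library, those of CTX2-2, CTX2-4, CTX2-12, CTX2-13, CTX-3 and PBS2-1. Of these, CTX2-2 and CTX2-4 have the same beta amino acids and so the same matches.

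Altogether 3 alpha chains were the main chain of more than 1 large clone, matched by TRAJ gene and CDR3 amino acids, and these families were picked out after the values were seen. The TRAJ22 family joined CTX2-2, CTX2-4 and CTX2-10, of 86, 55 and 15 cells, all on TRBV13-2, and CTX2-10 used another J gene, TRBJ1-1. Its alpha chain was found in 188 cells, 182 of them in CTX2 and 6 in Combined, and 173 of the 188 had a TRBV13 family beta chain. In CTX2 149 of the 182 belonged to the 3 large clones, 20 to 5 other clones with a TRBV13 gene, 2 to another TRBV and 11 to cells with no productive TRB. The alpha sequences of the 3 clones are shown for the bases by which they differ.
CTX2-2 TRA, TRAV7-1: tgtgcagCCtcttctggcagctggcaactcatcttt
CTX2-4 TRA, TRAV7-1: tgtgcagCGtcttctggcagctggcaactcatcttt
CTX2-10 TRA, TRAV7D-2: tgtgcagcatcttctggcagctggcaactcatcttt

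The TRAJ45 family crossed libraries. PBS1-1, of 17 cells, and CTX2-5, of 47, both paired TRBV14 with TRAV12-1 and TRAJ45, and their alpha CDR3 differed at 0 bases. The alpha amino acids were found in 77 cells, 24 in PBS1, 4 in PBS2, 48 in CTX2 and 1 in Combined, and 75 of the 77 had TRBV14. Of these 75, 58 were cells of PBS1-1 and CTX2-5, whose TRBV14 was given, and 17 were in 5 other clones. A TRAV12 gene with TRAJ45 was found in 7 of the 1077 single-cell clones (0.650%). The beta joints of PBS1-1 and CTX2-5, shown here, had different J genes and middle bases.
PBS1-1 TRB, TRBV14 and TRBJ2-4: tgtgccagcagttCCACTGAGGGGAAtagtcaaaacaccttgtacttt
CTX2-5 TRB, TRBV14 and TRBJ2-3: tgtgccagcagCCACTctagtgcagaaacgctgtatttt
CTX2-5 TRA, TRAV12-1 and TRAJ45: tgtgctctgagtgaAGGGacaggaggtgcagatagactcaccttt

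The TRAJ58 family joined CTX-3, of 14 cells on TRBV13-1, and CTX2-7, of 37 cells on TRBV13-3, whose TRAV14N-1 and TRAJ58 chains differed at 0 bases. The alpha amino acids were found in 58 cells, 14 in CTX, 37 in CTX2, 6 in PBS2 and 1 in CSF1R. Of the 58, 53 had a TRBV13 family beta chain and 5 had no productive TRB. Of the 53, 44 were cells of CTX-3 and CTX2-7 themselves and 9 were in 4 other clones. Sharing of an alpha chain between libraries is common in itself: the main TRA amino acids of 11 of 21 large clones were seen in another library, as were those of 31 of 104 single-cell clones in PBS1, 99 of 314 in PBS2, 104 of 302 in CTX and 120 of 357 in CTX2.

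**Figure D4:**
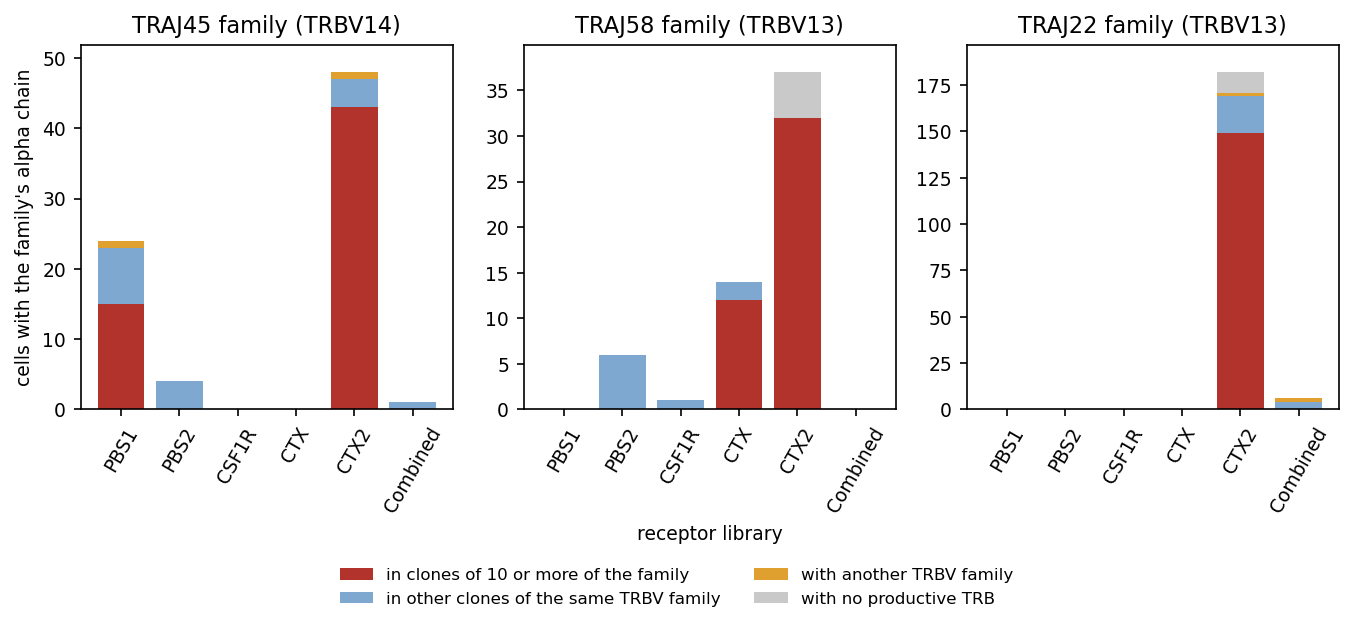
Number of cells in each receptor library with the alpha chain of each of the 3 families, split by whether the cell belongs to a large clone of the family, to another clone of the same TRBV family, to another TRBV family or has no productive TRB. The TRAJ22 chain lies almost wholly in CTX2, with 182 of 188 cells, and the TRAJ45 and TRAJ58 chains in 4 libraries each.

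The alpha chain also found cells that the beta rule missed. In CTX, 10 cells without a productive TRB carried the TRA of CTX-2, a clone of 18 cells whose TRB rested on a median of 3 UMIs, the lowest of the 21. A further 6 such cells carried the TRA of CTX-1, whose median was 5. They were also seen for clones with more TRB UMIs. In CTX2, 11 carried the alpha chain of CTX2-2, CTX2-4 and CTX2-10, whose medians were 16, 17 and 22. Another 5 carried that of CTX2-7, with a median of 8. For CTX-4, with a median of 16, there were 0. These cells are not counted in the clone sizes above.

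The depth of the chains differed more between clones than between classes of cell. The median number of TRB UMIs per cell ran from 3 in CTX-2 (quartiles 1.25 and 4.75) to 41 in CTX2-6 (27 and 57). CTX-4, in the same library as CTX-2, had a median of 16 (9.5 and 22.5). In CTX2 the largest clone had 24 (17 and 32), CTX2-2 had 16 (9 and 26), CTX2-3 had 31 (22.5 and 41) and CTX2-7 had 8 (6 and 14), so clones of 1 library did not share a level. A TRB on a single UMI was seen in 0 of 29 members in PBS1, 4 of 27 in PBS2 (14.8%), 9 of 84 in CTX (10.7%) and 2 of 543 in CTX2 (0.368%). Among single cells it was seen in 12 of 120, 14 of 361 (3.88%), 14 of 345 (4.06%) and 8 of 427 (1.87%), so members had the higher share in PBS2 and CTX and the lower one in PBS1 and CTX2. The authors' deposited clonotypes, which need all chains to match, split the 21 clones into 61, and the largest piece of each clone held 597 of the 683 cells (87.4%) in sum.

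Then 10 measures were compared between large clones and single-cell clones within each of the 4 libraries, by a two-sided exact sign-flip permutation test over libraries. With 4 libraries the smallest p it can give is 2 of 16 sign assignments, rounded here to 0.13, so none could pass 0.05, and p-values measure only the spread between libraries. Of these, 3 went the same way in all 4 with each cell counted once. A productive TRA was found in more of the large-clone cells, with 96.6% in PBS1, 88.9% in PBS2, 91.7% in CTX and 95.6% in CTX2, while single-cell clones had 86.7%, 87.0%, 87.5% and 83.6%. The mean difference was 6.97 ± 4.73 percentage points (SD, n = 4, exact permutation p = 0.13, adjusted 0.417).

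Extra chains were less frequent in large clones, counting chains with distinct CDR3 nucleotides. A second productive TRB, which a droplet with more than 1 cell, free RNA or a true dual cell can give, was found in 0% of large-clone cells in PBS1, PBS2 and CTX and 1.84% in CTX2. In single-cell clones it was found in 5.83%, 7.202%, 4.06% and 6.32%, and the 2 classes do not overlap. The counts of 0 allow shares of up to 10.3% in PBS1, 11.1% in PBS2 and 3.57% in CTX, so in PBS1 and PBS2 they do not set the classes apart. The mean difference was -5.39 ± 1.42 points (SD, n = 4, exact permutation p = 0.13, adjusted 0.417). A second productive TRA was found in 0%, 4.17%, 6.49% and 11.2% of large-clone cells with a TRA in PBS1, PBS2, CTX and CTX2, against 14.4%, 14.3%, 18.5% and 14.3%. In CTX these were 5 cells of CTX-3. In CTX2 most were cells of CTX2-7 (29), CTX2-11 (10) and CTX2-13 (9). The large-clone shares thus rest on few clones, whose cells are not separate observations. The mean difference was -9.94 ± 4.87 points (SD, n = 4, exact permutation p = 0.13, adjusted 0.417). When every contig was counted, so that a chain assembled in separate contigs counted more than once, the difference for TRB turned to 5.43 points higher in large clones. With clones of 5 or more cells, a rule that brings in CSF1R and Combined, the differences shrank to 1.89 points for a productive TRA, -2.39 for a second TRB and -2.91 for a second TRA. The second TRA difference also shrank to -4.30 with clones of at least 1% of the cells, to -4.35 with clones by amino acids and to -3.53 with every contig counted. The productive TRA difference was 3.50 against clones of 2 to 9 cells and 14.7 by deposited clonotype.

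The remaining 7 measures did not keep 1 direction. A TRB contig not marked productive was found in 3.45% of large-clone cells in PBS1, 11.1% in PBS2, 3.57% in CTX and 36.5% in CTX2, while single-cell clones had 11.7%, 14.7%, 11.6% and 4.92%, so that CTX2 alone was higher. The mean difference was 2.93 ± 19.2 points (SD, n = 4, exact permutation p = 1, adjusted 1), and without CTX2 it was -6.60. With each clone counted once it was -0.428. Counting only contigs marked False, the shares were 3.45%, 0%, 0% and 8.47% in large clones and 7.5%, 4.155%, 5.51% and 1.64% in single-cell clones, and the mean difference turned to -1.72. In the same order of libraries, median TRB UMIs were 11, 5, 6 and 21 in large clones and 9, 7, 8 and 11 in single cells, a difference of 2 ± 5.66 (SD, n = 4, exact permutation p = 0.875, adjusted 1). Without CTX2 it was -0.667, without CTX or without PBS2 it was 3.33, and with clones of 5 or more it was 4.42. Median TRA UMIs were 5.5, 5, 6 and 8 in large clones and 6, 4, 5 and 6 in single cells, a difference of 0.875 ± 1.03 (SD, n = 4, exact permutation p = 0.25, adjusted 0.417). It was 0.5 without CTX2, 1.33 without PBS1, 1.83 with clones of 5 or more and 0.13 against clones of 2 to 9 cells.

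**Figure D5:**
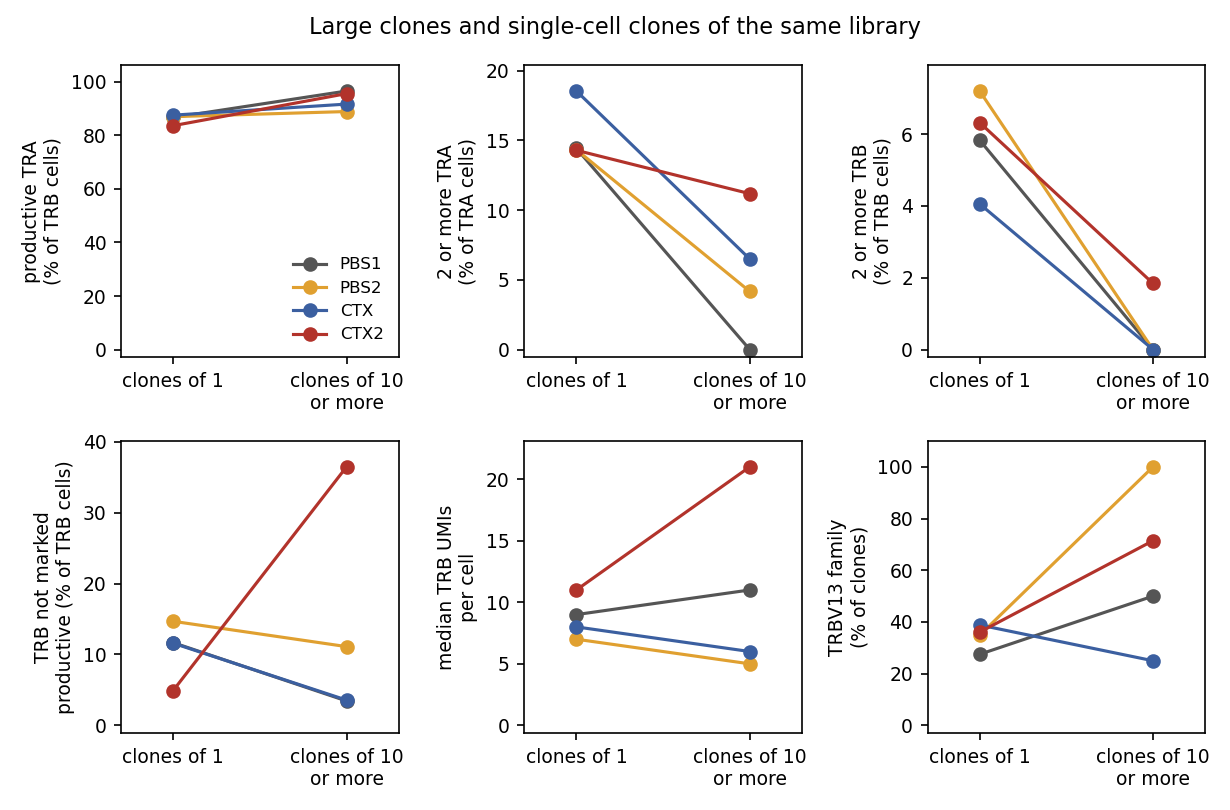
The plot shows 6 of the measures in single-cell clones and in clones of 10 or more cells, 1 line per library, with shares in % and UMIs as counts. Every line rises for a productive TRA and falls for a second TRA or TRB, while the share with a TRB not marked productive rises only in CTX2, from 4.92% to 36.5%.

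Gene use and length, with each clone counted once, rest on few large clones. The TRBV13 family made 1 of 2 large clones in PBS1, 1 of 1 in PBS2, 1 of 4 in CTX and 10 of 14 in CTX2, beside 27.5%, 34.9%, 38.8% and 36.1% of single-cell clones. The mean difference was 27.3 ± 32.7 points (SD, n = 4, exact permutation p = 0.25, adjusted 0.417). It was 14.7 without PBS2, which has 1 large clone, 41.0 without CTX, 13.9 against clones of 2 to 9 cells and 9.96 with clones of 5 or more. The TRBJ2 cluster made 50%, 100%, 75% and 64.3% of large clones against 57.5%, 64.8%, 65.8% and 62.8%, a difference of 9.60 ± 18.4 points (SD, n = 4, exact permutation p = 0.375, adjusted 0.536). It was 1.075 without PBS2, 15.3 without PBS1, 27.2 with clones of 20 or more and -3.52 with clones of at least 1% of the cells. Mean CDR3 length was 48, 36, 36 and 41.8 bases against 41.4, 41.1, 41.3 and 41.1, a difference of -0.796 ± 5.64 (SD, n = 4, exact permutation p = 1, adjusted 1), which turned to 0.708 without CTX and to 0.640 without PBS2, and was -3.25 without PBS1.

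Beta chains found again in another library made 0 of 2 large clones in PBS1, 1 of 1 in PBS2, 1 of 4 in CTX and 4 of 14 in CTX2. The 4 of CTX2 include CTX2-2 and CTX2-4, which have the same beta amino acids and the same matches. Among single-cell clones the shares were 5.83%, 4.43%, 4.64% and 3.28%. The mean difference was 33.9 ± 43.4 points (SD, n = 4, exact permutation p = 0.25, adjusted 0.417). It fell to 13.3 without PBS2 and its 1 large clone, to 12.4 with clones of 5 or more and to 20.4 with clones of at least 1% of the cells. A difference of such spread over 4 libraries was not told apart from 0 by this test, which does not show that the classes are alike.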

How the data were processed

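Receptor contigs, as assembled and deposited by the authors, come with a read count and a UMI count, whole numbers with no normalization. Per the submitters' processing notes, Cell Ranger 3.0.2 and the builds mm10 and GRCm38 were used. Of the library names in the table, 5 matched no label and were not used, and the expression matrices were not analysed here. Cell calls, gene names and productive marks were taken as deposited, and doublets were kept.

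Cells, clones and members were called as the report opens with. A chain was counted once per cell by its CDR3 nucleotides. Typical V and J stretches were walked base by base while at least 50% of 20 or more distinct sequences of the gene agreed. Clones named in full were the 3 largest of each library, with others named as exceptions or near the threshold of 10, from 8 to 12 cells. The members, lists and tests were chosen with earlier results of these data known. Differences were tested within 4 libraries by exact sign-flip permutation, adjusted by Benjamini-Hochberg over 10 measures. Single shares carry exact 95% Clopper-Pearson intervals, and the limit for a count of 0 is 3 counts of the total. Alternatives were clones of 5 or 20 cells or 1% of a library, comparison with clones of 2 to 9, clones by amino acids or deposited clonotype, high-confidence contigs, no possible doublets (2 TRB or 3 TRA), 2 UMIs at least, the other weight, and each library left out. Counting every contig, matching TRA by CDR3 alone, and counting only TRB contigs marked False were added after seeing the data. All 44 gene names of large clones matched RefSeq GRCm38.p6. Functions were tested on simulated data. Tools were pandas 2.3.3, scipy 1.17.1, numpy 2.4.6 and matplotlib 3.10.9 under Python 3.11.15.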

Additional observations from a re-analysis of the deposited data

Results flagged for a closer look

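In CTX2 the share of cells with a TRB contig not marked productive was 31.6 percentage points higher in large clones than in single-cell clones, far from the other 3 libraries, where the difference ran from -8.22 to -3.57 points. Of 11 groups of 4 values checked in this way, this was the only one with a library so far out, and chance gives about 1 in 20. Most of these CTX2 cells were in 5 clones that shared such a contig, with 81, 70, 19, 11 and 9 cells. Cells of 1 clone are not separate observations. With each clone counted once, the mean difference over the 4 libraries was -0.428, which does not give the value of CTX2 alone. In those 5 CTX2 clones the shared contig was in 94.2%, 59.8%, 34.55%, 26.8% and 60% of cells, in the order above. Counting only contigs marked False, the difference was 6.83 points in CTX2 and -5.51 to -4.05 in the others.

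In PBS1, the library labelled untreated, 3 differences went the opposite way to those of all 3 libraries labelled treated that had large clones. Large clones minus single-cell clones was -0.5 for the median TRA UMIs, -7.5 points for the TRBJ2 cluster and -5.83 points for beta chains found again in another library. These contrasts were not tested, rest on 2 large clones in PBS1, and include PBS2, whose labels conflict.

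Barcodes that were not called as cells were not used in the report. Of 994 such barcodes with a productive TRB in the 4 libraries, 405 carried the TRB of a large clone (40.7%), 370 of them among 580 in CTX2, and every one of the 21 clones had some. Their TRB rested on a median of 1 UMI and at most 4.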

How the results depend on the processing

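Of 150 differences under alternatives, 141 kept their direction, 5 of the 10 measures kept it throughout, and the smallest p by the exact permutation test over these alternatives was 0.13. That is the least that 4 libraries allow, but clones of 5 or more gave no smaller p either, where 6 libraries would have allowed a p below 0.05. The nonproductive TRB difference turned to -0.318 with clones of 5 or more to -0.428 with the other weight and to -1.72 with only contigs marked False, and ran from -6.60 to 6.65 with each library left out. The TRBJ2 difference turned to -3.52 with clones of at least 1% of the cells. With each library left out, mean CDR3 length ran from -3.25 to 0.708, turning without CTX (0.708) and without PBS2 (0.640), and median TRB UMIs from -0.667 to 3.33. The second TRB difference turned to 5.43 when every contig was counted, and had no value without possible doublets, a setting that removes such cells. By deposited clonotype, large clones held 12.2% of CTX and 42.5% of CTX2, and the main TRA share rose to 99.7%, since that definition uses the alpha chain. By amino acids the main TRA share was 86.8%, since nucleotide forms are merged. Their number was 18 by deposited clonotype and 21 otherwise. Matching TRA by CDR3 nucleotides alone gave 97.7%. All 10 differences were taken within libraries. Beyond this pairing within libraries no other was used, since no groups of libraries with shared replicate numbers were compared. The number of cells limits the shares, and 4 libraries limit the tests.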
